A study of Mus musculus with 36 samples.

Results

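Elastin and the proteins of the microfibrils around it were followed through 10 genes, Eln, Fbn1, Fbln1, Fbln2, Fbln5, Emilin1, Mfap2, Mfap4, Mfap5 and Ltbp4, in mouse liver RNA. They were taken by gene symbol from the 24421 genes counted in each of 36 livers. All mice were male C57BL/6J mice, bought at 7 weeks of age and kept for 1 week before the diet, and all had been fed for 12 weeks on CDAHFD, a choline-deficient and amino acid-defined high-fat diet that causes steatohepatitis and fibrosis. In the first experiment, CDAHFD was replaced by a high-fat diet without choline deficiency, the HFD, for 2 weeks with 2 weekly injections under the skin, of Fc (10 mice, 4.3 mg/kg) or of Fc(mML1)B3 (10 mice, 5 mg/kg). In the second, CDAHFD was replaced by a standard diet for 10 days, and mice were injected with Fc (9 mice) or Fc(mML1)B3 (7 mice) at these doses on days 1, 4 and 7. Fc is the constant fragment of an antibody. Fc(mML1)B3 is this fragment with a macrocyclic peptide that binds Met, the receptor of hepatocyte growth factor, grafted into its loops. No liver of a mouse that never received CDAHFD, and no untreated liver, entered these comparisons. Diet, experiment, dosing schedule and time cannot be told apart here.

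Elastic fibres give tissues their recoil. Tropoelastin, the product of Eln, is deposited on a scaffold of fibrillin microfibrils and is crosslinked there by lysyl oxidases, and fibulins, emilins, microfibril-associated proteins and latent TGF-β binding proteins bind the scaffold or guide the assembly. In liver these genes are expressed mainly by fibroblasts of the portal tract, stellate cells and cells of the vessel wall, and elastic fibres accumulate in scars. In whole liver RNA, fewer cells of a type and less RNA per cell cannot be told apart.

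Promoter sequence of RefSeq (GRCm38.p6, the same assembly as mm10) started at the outermost gene start of the deposited annotation for 7 of the 10 members. Eln, Mfap4 and Mfap5 had no entry at that start. The 250 bases before the start site are printed for 4 members, Fbn1 and Emilin1 because both had an adjusted p below the threshold of each diet in the comparison of the proteins, and Fbln1 and Mfap2 because they had the highest coefficients of variation among the members tested in both HFD groups. They lie at chr2:125506439-125506688 on the minus strand (Fbn1), chr5:30913536-30913785 on the plus strand (Emilin1), chr15:85205758-85206007 on the plus strand (Fbln1) and chr4:141010174-141010423 on the plus strand (Mfap2). Capitals mark matches on either strand to the letters of 4 short motifs, the GC box GGGCGG, the SMAD element CAGAC, the TEAD element GGAATG and the AP-1 site TGANTCA.
Fbn1: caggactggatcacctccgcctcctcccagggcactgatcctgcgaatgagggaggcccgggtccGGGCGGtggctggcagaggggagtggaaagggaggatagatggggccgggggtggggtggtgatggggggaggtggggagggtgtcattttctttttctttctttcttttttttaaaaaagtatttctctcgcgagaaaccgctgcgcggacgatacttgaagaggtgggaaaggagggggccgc
Emilin1: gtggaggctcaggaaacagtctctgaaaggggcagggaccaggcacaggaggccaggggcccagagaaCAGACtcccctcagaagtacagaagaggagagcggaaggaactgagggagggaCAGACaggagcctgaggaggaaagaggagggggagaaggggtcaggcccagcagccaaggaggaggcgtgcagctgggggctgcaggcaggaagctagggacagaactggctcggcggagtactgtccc
Fbln1: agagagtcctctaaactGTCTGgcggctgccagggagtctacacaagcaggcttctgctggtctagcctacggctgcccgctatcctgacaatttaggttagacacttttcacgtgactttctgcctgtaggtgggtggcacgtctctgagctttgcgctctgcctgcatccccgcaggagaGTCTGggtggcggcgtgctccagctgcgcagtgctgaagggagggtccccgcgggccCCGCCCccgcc
Mfap2: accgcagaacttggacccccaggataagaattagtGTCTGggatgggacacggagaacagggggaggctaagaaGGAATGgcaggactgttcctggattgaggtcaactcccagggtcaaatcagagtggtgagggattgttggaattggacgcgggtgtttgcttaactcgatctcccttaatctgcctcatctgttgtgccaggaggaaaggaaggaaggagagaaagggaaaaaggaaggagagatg

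Fbn1 held 1 GC box, 185 bases before the start, and no match to the other motifs. Emilin1 held 2 SMAD elements, 182 and 129 bases before the start. Fbln1 held 2 SMAD elements and 1 GC box, and Mfap2 held 1 SMAD element and 1 TEAD element. These letters are common, since 42.1% of 27025 promoters of this length held a SMAD element, 32.9% a GC box, 12.6% a TEAD element and 6.87% an AP-1 site. A match is a match of letters and no evidence of binding.

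The libraries held 14949035 to 28466853 counted reads, and no pair within a group was alike within sampling noise. The unit of level is the CPM, counts per TMM-scaled library size, scaled over the 36 libraries together, and different genes are compared by RPKM, the CPM per exonic kilobase. The markers of hepatocytes summed to 76304 to 147114 CPM in the 36 livers. One HFD liver, that of Fc(mML1)B3 mouse 5, was at the edge of its group for every cell type whose markers were summed. Its sums were the highest for myofibroblasts (504 CPM, against 160 to 323) and stellate cells (242 CPM, against 144 to 182). They were also the highest for smooth muscle (78.6 CPM, against 22.4 to 43.7) and mesothelium, and the lowest for endothelium and adipocytes. It had the lowest sum of hepatocyte markers of its 10 mice (76304 CPM, against 96865 to 147114 in the others), the highest sum of portal fibroblast markers (164 CPM, against 31.8 to 108) and the highest sum of cholangiocyte markers (166 CPM, against 29.5 to 90.6). Between the proteins on the HFD, the markers and the 5 genes most like Eln are given only with this liver. Elsewhere, where leaving out this liver changed a call or moved a count or a value markedly, the value without it stands beside the result.

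Per exonic length, Emilin1 and Ltbp4 were the most abundant members in every group. Emilin1 encodes a glycoprotein at the interface of elastin and microfibrils, and had an RPKM of 22.1 ± 5.12 (SD, n = 10) in Fc mice on the HFD. Ltbp4, which binds latent TGF-β and assists elastin assembly, had an RPKM of 12.6 ± 3.06 (SD, n = 10) in the same mice, and lay below Emilin1 in all 10. Mfap4 and Fbln5 followed at 4.69 ± 1.71 and 4.23 ± 0.942, within 1 SD of each other. Eln (2.30 ± 1.34), Fbln1 (2.00 ± 1.21), Mfap2 (1.96 ± 1.46), Fbn1 (1.52 ± 0.470) and Fbln2 (1.31 ± 0.381) formed a run in which no neighbours differed beyond their SD. Mfap5, a microfibril glycoprotein, had at most 6 reads in any library. It had no read in 4 of the Fc and 6 of the Fc(mML1)B3 mice on the HFD, and in 5 of the Fc and 2 of the Fc(mML1)B3 mice on the standard diet, and it did not pass the filter on low counts in any comparison.

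In Fc mice on the standard diet, Eln held rank 3 by its mean, with an RPKM of 2.88 ± 1.02 (SD, n = 9), behind Emilin1 (12.0 ± 1.52) and Ltbp4 (10.3 ± 1.16), though within 1 SD of Mfap4 (2.52 ± 1.52), which it exceeded in 7 of 9 mice. The 10 members summed to an RPKM of 52.8 ± 13.5 (n = 10) in Fc and 42.5 ± 14.7 (n = 10) in Fc(mML1)B3 mice on the HFD, and to 33.3 ± 5.17 (n = 9) and 28.9 ± 2.32 (n = 7) on the standard diet. Without mouse 5 the sum in Fc(mML1)B3 mice on the HFD was 38.5 ± 7.72 (n = 9). Eln made up 4.11 ± 1.55% and 3.02 ± 0.999% of this sum on the HFD. On the standard diet it made up 8.43 ± 1.83% in Fc mice and 4.51 ± 0.907% in Fc(mML1)B3 mice, and the 2 ranges, 5.82% to 10.7% and 3.83% to 6.47%, overlapped through 1 Fc(mML1)B3 mouse, mouse 2. The ratio of Eln to Fbn1 RPKM had medians of 1.30 and 1.14 on the HFD, and of 2.06 in Fc and 1.22 in Fc(mML1)B3 mice on the standard diet.

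**Figure D1:**
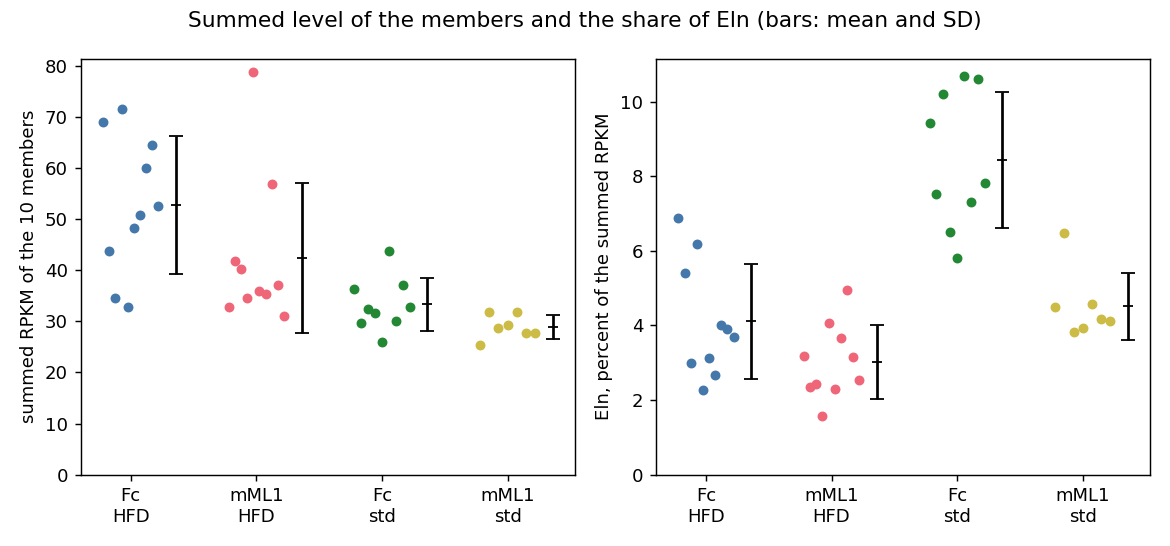
Summed RPKM of the 10 members (left) and the share of Eln in that sum in percent (right) in each mouse of the 4 groups, where mML1 stands for Fc(mML1)B3 and std for the standard diet. Bars give the mean and SD, and the Eln share has its highest mean in Fc mice on the standard diet (8.43 ± 1.83%), where the lowest mouse (5.82%) lies within the range of Fc mice on the HFD (2.26% to 6.87%).

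The first comparison was of Fc(mML1)B3 with Fc on the standard diet, and in it Eln, the gene of the elastic core itself, fell 2.20-fold. Eln lies on chromosome 5 of mm10 from 134702596 to 134747254 on the minus strand. It had a lowest, median and highest level of 5.73, 9.73 and 17.7 CPM in the 9 Fc mice, and of 4.16, 4.35 and 7.79 CPM in the 7 Fc(mML1)B3 mice. Below the Fc median lay 7 of 7 Fc(mML1)B3 mice, and below the lowest Fc mouse 6, so the groups overlapped by 1 mouse, Fc(mML1)B3 mouse 2. The log2 fold change was -1.14 (standard error, SE, 0.20, adjusted p = 6.97e-04 by edgeR's quasi-likelihood test). Each SE was derived as the size of the log2 fold change over the square root of the F statistic of that test. Exact permutation of the mice, 2-sided and on mean log2 CPM, gave p = 5.24e-04. The library names carry running numbers, from which sets of libraries were inferred here, since no label names a batch. With only the 4 Fc mice whose numbers run on into those of the 7 Fc(mML1)B3 mice, as 1 inferred set, the log2 fold change was -1.35 (adjusted p = 0.00158). Eln was the 1 member of 9 tested that was called lower by both thresholds (adjusted p under 0.05, fold over 1.5), where 1.31% of 13570 genes were called lower. None was called higher, where 1.05% of genes were. With the thresholds of the HFD (adjusted p under 0.1, fold over 2), added here after seeing the data, Eln was again the 1 member called lower, where 0.265% of genes were.

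Fbn1 and Emilin1 were lower by less than the fold limit. Fbn1 encodes fibrillin-1, the main rod of the microfibril, and lies on chromosome 2 from 125300594 to 125506438. Its lowest, median and highest levels were 9.57, 13 and 16.4 CPM in Fc and 8.23, 10.6 and 11.9 CPM in Fc(mML1)B3 mice, all 7 of which lay below the Fc median. Its log2 fold change was -0.35 (SE 0.10, adjusted p = 0.0241, exact permutation p = 0.0114). Emilin1, on chromosome 5 from 30913786 to 30921273, had 35.7, 41.4 and 53.6 CPM in Fc and 30.6, 35.9 and 39.6 CPM in Fc(mML1)B3 mice, again with all 7 below the Fc median. Its log2 fold change was -0.25 (SE 0.07, adjusted p = 0.0284, exact permutation p = 0.00612). With Eln, 3 members were lower at an adjusted p below 0.05 alone, where 7.55% of all genes were. The adjusted p of Emilin1 passed the threshold in neither the fit without Fc(mML1)B3 mouse 1 (0.0601) nor that without mouse 7 (0.0658). That of Fbn1 was 0.0505 without Fc(mML1)B3 mouse 1, 0.0523 without mouse 6 and 0.0617 within the shared inferred set.

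The other 6 tested members had log2 fold changes between -0.21 and -0.01. Fbln1, which encodes a fibulin of elastic fibres and basement membranes, was at 2.15 ± 0.910 CPM (SD, n = 9) in Fc and 2.16 ± 0.696 CPM (n = 7) in Fc(mML1)B3 mice. Mfap4, which binds tropoelastin and fibrillin, was at 3.81 ± 2.30 and 3.74 ± 1.23 CPM, and Fbln5, which brings tropoelastin to the microfibril, at 11.7 ± 3.08 and 10.5 ± 2.06 CPM. Fbln2 was at 4.10 ± 0.705 and 3.78 ± 0.484 CPM, Mfap2 at 0.780 ± 0.358 and 0.680 ± 0.249 CPM, and Ltbp4 at 57.7 ± 6.49 and 55.9 ± 4.38 CPM. Their ranges overlapped and their adjusted p values were 0.533 to 0.990. The log2 fold change of Mfap2, which rested on medians of 17 reads in both groups, had an SE of 0.29, larger than the value itself. Over the 9 tested members the median log2 fold change was -0.15, beside -0.01 over all genes.

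**Figure D2:**
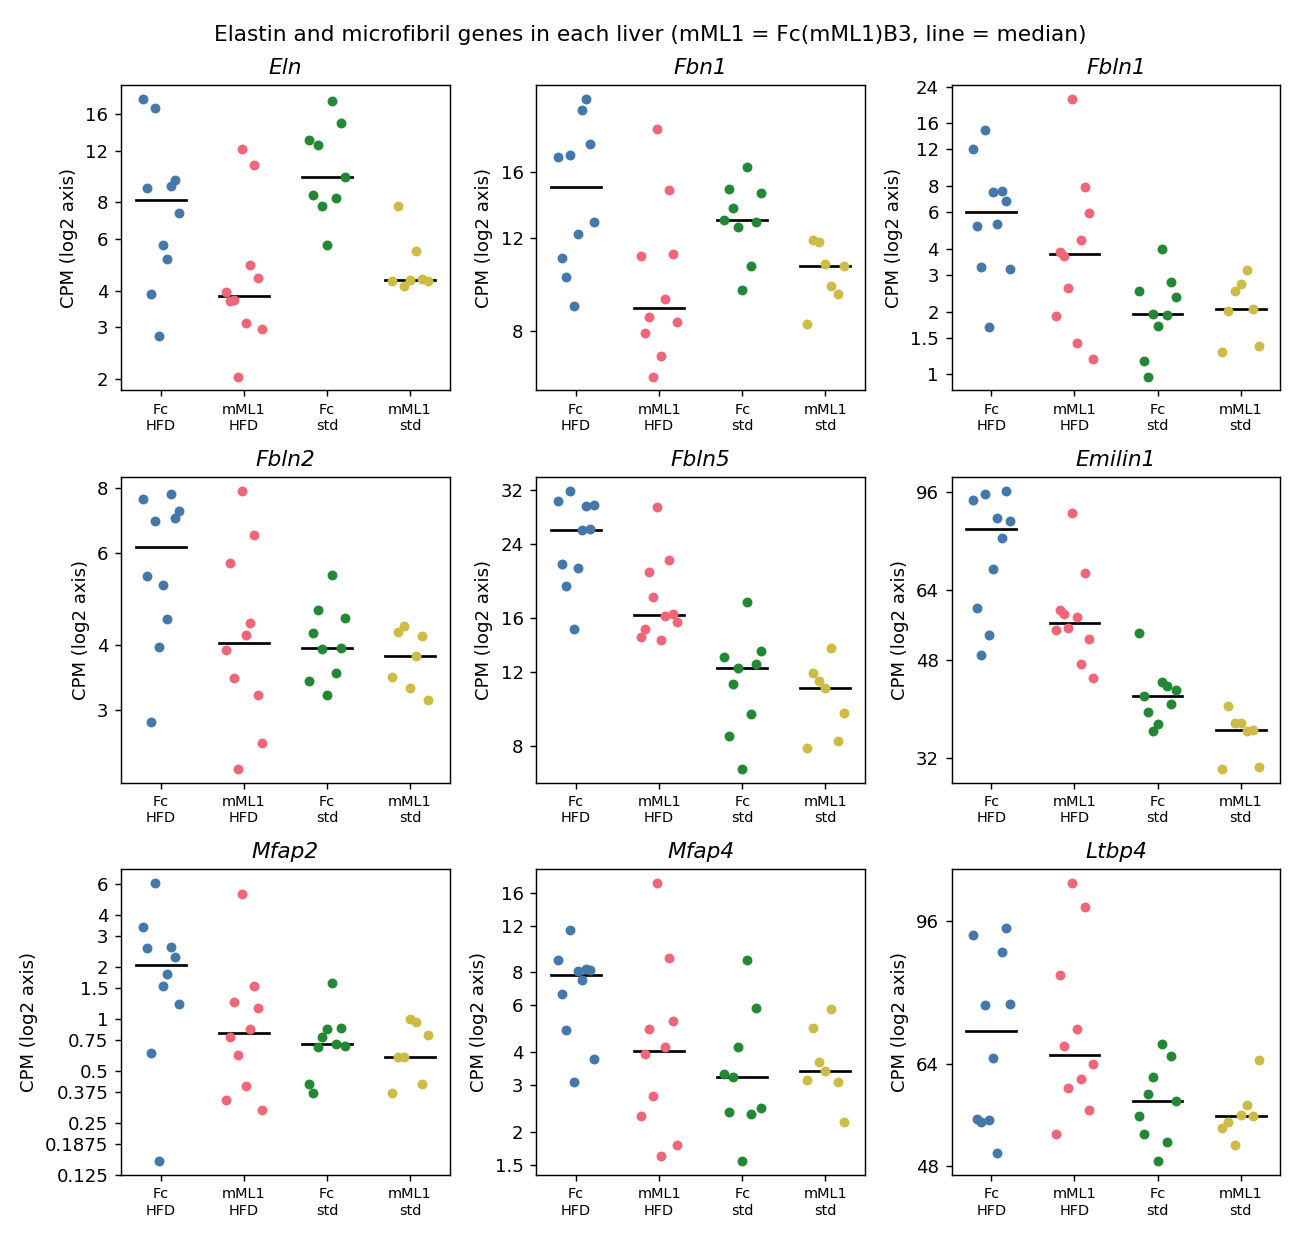
CPM of the 9 tested members in each of the 36 livers on log2 axes, in the 4 groups, with mML1 for Fc(mML1)B3, std for the standard diet and a line at each median. For Eln, 6 of the 7 Fc(mML1)B3 mice on the standard diet lie below the lowest Fc mouse, and 1 HFD mouse of the Fc(mML1)B3 group stands highest in its group for all 9 genes.

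On the HFD, no member was called in the comparison of the 2 proteins by the thresholds of that experiment (adjusted p under 0.1, fold over 2), where 0.677% of 13299 genes were called lower and 0.662% higher. At the adjusted p alone 3 members were lower, Fbn1, Fbln5 and Emilin1, where 10.2% of genes were lower. In each of these, the Fc median was above 9 of 10 Fc(mML1)B3 mice. Of the 9 tested members 8 had a log2 fold change below 0, and their median was -0.40, beside -0.01 over all genes. By the numbers in the library names, all 10 Fc libraries, those of Fc(mML1)B3 mice 1 to 4 and those of mice 5 to 10 form separate inferred sets, so set and protein cannot be told apart on the HFD.

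Fbln5, on chromosome 12 from 101746565 to 101819119, had a lowest, median and highest level of 15.1, 25.8 and 31.9 CPM in Fc and of 14.2, 16.3 and 29.2 CPM in Fc(mML1)B3 mice. Only mouse 5 of the Fc(mML1)B3 group lay above the Fc median. The log2 fold change was -0.44 (SE 0.14, adjusted p = 0.0322, permutation p = 0.00976 with 100000 resamples). Emilin1 had 48.9, 82.3 and 96.5 CPM in Fc and 44.5, 56.0 and 88.0 CPM in Fc(mML1)B3 mice, with a log2 fold change of -0.38 (SE 0.13, adjusted p = 0.0481, permutation p = 0.0183). Fbn1 had 8.91, 15 and 22.1 CPM in Fc and 6.54, 8.84 and 19.4 CPM in Fc(mML1)B3 mice, with a log2 fold change of -0.52 (SE 0.19, adjusted p = 0.0713, permutation p = 0.0200). In all 3 genes the groups overlapped. The adjusted p of Fbn1 was above 0.1 in 11 of the 20 fits that left out 1 library, reaching 0.129 without Fc(mML1)B3 mouse 4. With only Fc(mML1)B3 mice 5 to 10 the adjusted p was 0.335 for Fbn1, 0.144 for Fbln5 and 0.174 for Emilin1. With only mice 1 to 4 it was 0.0512 for Fbn1, 0.0782 for Fbln5 and 0.124 for Emilin1.

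Eln on the HFD had 2.81, 8.13 and 18.0 CPM in Fc and 2.04, 3.83 and 12.1 CPM in Fc(mML1)B3 mice. Fc mice 1 and 4 (18.0 and 16.7 CPM) and Fc(mML1)B3 mice 5 and 8 (12.1 and 10.7 CPM) stood above the rest of their groups. The log2 fold change was -0.73 (SE 0.33, adjusted p = 0.140, permutation p = 0.0567). It was -1.32 with only Fc(mML1)B3 mice 1 to 4 (adjusted p = 0.0639), which is called at the thresholds, and -0.43 with only mice 5 to 10 (adjusted p = 0.527).

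The other 5 tested members did not pass the adjusted p. Mfap2, a small protein bound to fibrillin, ranged from 0.150 to 6.08 CPM in Fc mice, where the lowest library had 4 reads, and from 0.297 to 5.23 CPM in Fc(mML1)B3 mice (log2 fold change -0.82, SE 0.50, adjusted p = 0.272). Fbln1 ranged from 1.69 to 14.8 CPM in Fc and from 1.19 to 21.0 CPM in Fc(mML1)B3 mice (log2 fold change -0.31, SE 0.43, adjusted p = 0.672), with coefficients of variation of 60.4% and 109%. The 109% rested on mouse 5, the highest at 21.0 CPM. The other 9 mice reached at most 7.94 CPM and had a coefficient of 60.6%. For Mfap2 it was 117% with mouse 5 and 54.3% without, below those of Mfap4 (58.6%) and Eln (57.0%) in the same 9 mice. Mfap4 ranged from 3.07 to 11.6 and from 1.62 to 17.4 CPM (log2 fold change -0.40, SE 0.34, adjusted p = 0.463). Fbln2 ranged from 2.85 to 7.79 and from 2.32 to 7.90 CPM, with an adjusted p of 0.224. Ltbp4 ranged from 49.8 to 94.2 and from 52.5 to 107 CPM, and its log2 fold change was 0.05 (SE 0.14, adjusted p = 0.846).

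Fc(mML1)B3 mouse 5 held the highest level of its group in all 9 tested members. Without it, 8 of the 9 were lower at an adjusted p below 0.1, all but Ltbp4, where 16.0% of 13387 genes were lower. Mfap2 was then called, where 1.08% of genes were called lower, with a log2 fold change of -1.41 (SE 0.43, adjusted p = 0.0254). Eln had a log2 fold change of -0.95 (adjusted p = 0.0355), Mfap4 of -0.79 (adjusted p = 0.0447), Fbln1 of -0.84 (adjusted p = 0.0954) and Fbln2 of -0.50 (adjusted p = 0.0703). Fbn1 (-0.65), Fbln5 (-0.54) and Emilin1 (-0.46) were larger too, with adjusted p values of 0.0106, 0.00378 and 0.00875. Since it was the highest mouse of its group, leaving it out lowers the mean of that group. Fits without an Fc mouse that stood high went the other way. Without Fc mouse 4, Eln was at -0.57 (adjusted p = 0.267), Mfap2 at -0.50 (adjusted p = 0.536), Mfap4 at -0.28 (adjusted p = 0.643) and Fbln1 at -0.09 (adjusted p = 0.920), and Fbln5 and Emilin1 were the 2 members lower at the adjusted p alone, where 8.45% of genes were. Without Fc mouse 1, Eln was at -0.55 (adjusted p = 0.285), and the same 2 were lower, where 8.39% of genes were. The part of the cell type markers of mouse 5 in these values was not tested.

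**Figure D3:**
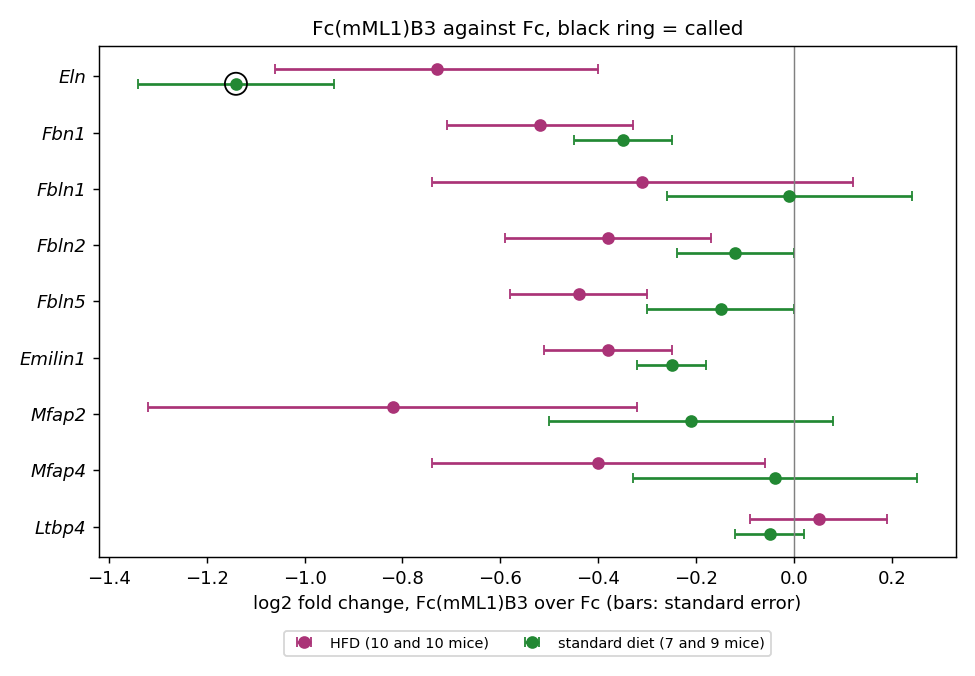
Log2 fold change of Fc(mML1)B3 over Fc for the 9 tested members on the HFD and on the standard diet, with standard errors as bars and a black ring around a called value. Eln on the standard diet (-1.14) is the ringed value, and the HFD bars of Mfap2 and Fbln1 (SE 0.50 and 0.43) are the widest.

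A difference of the Fc(mML1)B3 effect between the diets was tested as an interaction in a model of all 36 libraries. None of the 9 members was called at an adjusted p below 0.05, where 4.40% of 14105 genes were called lower and 4.66% higher, and none had an unadjusted p below 0.05. For Eln the interaction was -0.39 on the log2 scale (SE 0.43, adjusted p = 0.687). For Fbln5, with the smallest p of the members, it was 0.30 (SE 0.22, adjusted p = 0.472). So Eln, called on the standard diet only, was not shown to differ between the diets. Without HFD Fc(mML1)B3 mouse 5 the smallest adjusted p was 0.191, for Mfap2.

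Fbln1, Fbln5, Emilin1, Mfap2 and Mfap4 were lower on the standard diet than on the HFD among Fc mice, while Eln and Fbn1 did not pass the test. By the same 2 thresholds, 5 of the 9 tested members were called lower and none higher, where 9.06% of 14105 genes were called lower and 6.75% higher. Emilin1 had a log2 fold change of -0.88 (SE 0.12, adjusted p = 1.10e-07) and Fbln5 one of -1.09 (SE 0.15, adjusted p = 2.35e-07). For both, 8 of the 9 standard diet mice lay below the lowest of the 10 HFD mice. Fbln1 had a log2 fold change of -1.63 (SE 0.40, adjusted p = 0.00104) and Mfap2 one of -1.50 (SE 0.45, adjusted p = 0.00566), and all 9 standard diet mice lay below the HFD median for both. Mfap4 had one of -0.89 (SE 0.34, adjusted p = 0.0300).

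Fbln2 (-0.51, adjusted p = 0.0188) and Ltbp4 (-0.29, adjusted p = 0.0487) were lower by less than the fold limit. At the adjusted p alone 7 members were lower, where 24.6% of genes were. Eln had a log2 fold change of 0.32 (SE 0.29, adjusted p = 0.367), and 7 of 9 standard diet mice lay above the HFD median. Fbn1 had one of -0.20 (SE 0.17, adjusted p = 0.336). With only the 4 Fc mice of the inferred set shared with Fc(mML1)B3 on the standard diet, which leaves fewer mice, Emilin1 (-0.84) and Fbln5 (-0.90) were the 2 members called, and Fbln1 (-1.27, adjusted p = 0.0707), Mfap2 (-1.18, adjusted p = 0.137) and Mfap4 (-0.52, adjusted p = 0.385) were not. Mfap4 also lost its call without HFD Fc mouse 4 (adjusted p = 0.0670) and without each of standard diet Fc mice 2, 5, 7 and 9.

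Among Fc(mML1)B3 mice, Fbln1, Fbln5 and Emilin1 were called lower on the standard diet, 3 of 9 tested members, where 6.05% of genes were called lower and 5.91% higher. For Fbln5 (log2 fold change -0.79, SE 0.16, adjusted p = 1.95e-04) and Emilin1 (-0.73, SE 0.13, adjusted p = 1.55e-05) the groups did not overlap, with 7.94 to 13.6 against 14.2 to 29.2 CPM for Fbln5 and 30.6 to 39.6 against 44.5 to 88.0 CPM for Emilin1. Fbln1 had a log2 fold change of -1.32 (SE 0.44, adjusted p = 0.0147), which was -0.79 (adjusted p = 0.0858) without HFD mouse 5. With Ltbp4 (-0.37, adjusted p = 0.0247), 4 members were lower at the adjusted p alone, where 17.9% of genes were. Without HFD mouse 5, Ltbp4 was at -0.30 (adjusted p = 0.0574), and Fbln5 and Emilin1 were the 2 members lower at the adjusted p alone, where 16.9% of genes were, and also the 2 called, where 4.45% were. Eln (-0.07) and Fbn1 (-0.01) had adjusted p values of 0.881 and 0.961.

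Some markers of matrix-producing cells differed between the diets in the same mice, and those of stellate cells went both ways. Among Fc mice, Acta2 and Col1a1 of the 4 myofibroblast markers and Thy1 and Dpt of the 3 tested portal fibroblast markers were called lower on the standard diet. Of the 6 stellate cell markers, Pdgfrb and Hand2 were called lower and Rgs5 higher (0.77, adjusted p = 0.00353), and the summed list had medians of 178 CPM on the HFD and 182 CPM on the standard diet. The summed portal fibroblast markers ranged from 34.8 to 146 CPM (median 78.5) on the HFD and from 35.2 to 85.2 CPM (median 44.1) on the standard diet, and none of the 5 was without reads. In the comparison of the proteins, no marker of stellate cells, myofibroblasts, portal fibroblasts or smooth muscle was called on either diet. At the adjusted p alone, Pdgfrb, a receptor of stellate cells and other mural cells, was lower on both (-0.53, adjusted p = 0.0808 on the HFD, and -0.51, adjusted p = 0.00730 on the standard diet). So were Entpd2 of the portal fibroblast list on the HFD (-0.33, adjusted p = 0.0776), and Des of the stellate cell list (-0.36, adjusted p = 0.0239) and Smtn of the smooth muscle list (-0.32, adjusted p = 0.00924) on the standard diet. Of all genes, 10.2% were lower at the adjusted p alone on the HFD and 7.55% on the standard diet. Other markers of these lists lay above 0 without passing. On the HFD these were Acta2 (0.34), Myh11 (0.41), Tagln (0.04), Reln (0.06) and Rgs5 (0.02). On the standard diet they were Hand2 (0.11), Thy1 (0.07) and Timp1 (0.01). Cyp2e1 of the hepatocyte list was higher on the standard diet at the adjusted p alone (0.25, adjusted p = 0.0176). Of the cholangiocyte list, all 4 markers lay below 0 between the proteins on the standard diet (median -0.37), with Sox9 lower at the adjusted p alone (-0.50, adjusted p = 0.0402). Between the diets, Epcam was called lower on the standard diet in Fc mice (-1.03, adjusted p = 0.0113). So was Wt1 of the mesothelium list (-0.87, adjusted p = 0.0180), while Msln (0.21) and Upk3b (0.30) of that list lay above 0 uncalled. Among Fc(mML1)B3 mice, Acta2 (-2.11, adjusted p = 1.38e-05), Col1a1 (-1.08, adjusted p = 2.37e-04), Dpt (-0.94, adjusted p = 0.0175), Krt19 (-1.53, adjusted p = 0.00370) and Sox9 (-0.86, adjusted p = 0.00136) were called lower on the standard diet. So were Myh11 (-1.02, adjusted p = 0.0319) and Tagln (-0.63, adjusted p = 0.00269) of the smooth muscle list, while Rgs5 was called higher (0.64, adjusted p = 0.0260). Wt1 of the mesothelium list was called lower too (-1.22, adjusted p = 0.00495). The other tested markers of that list, Msln (0.31) and Upk3b (0.46), lay above 0 and were not called. Cfd, the only adipocyte marker tested, was called lower (-1.66, adjusted p = 0.00308). Without HFD mouse 5, Dpt (-0.68, adjusted p = 0.0606), Myh11 (-0.16, adjusted p = 0.530) and Tagln (-0.53, adjusted p = 0.00700, below the fold limit) were no longer called. Acta2 was then at -1.52 (adjusted p = 2.26e-06) and Krt19 at -0.82 (adjusted p = 0.0251), both still called. The part of these cells in the values of the members was not tested.

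**Figure D4:**
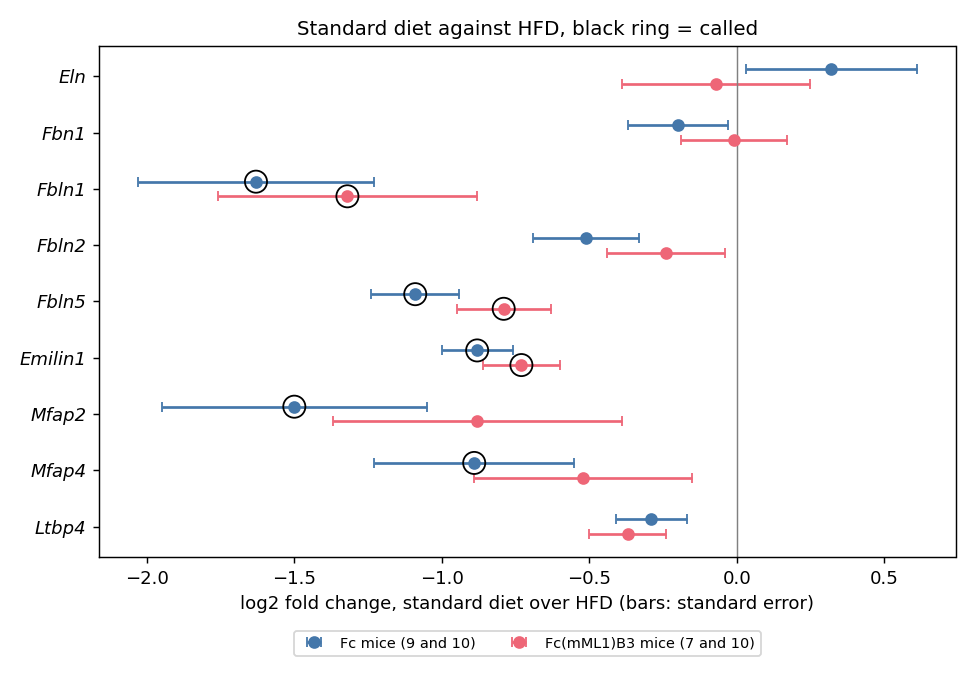
Log2 fold change of the standard diet over the HFD for the 9 tested members in Fc mice and in Fc(mML1)B3 mice, with standard errors as bars and a black ring around a called value. The 5 values of the Fc mice and 3 of the Fc(mML1)B3 mice that are ringed all lie below 0, while Eln (0.32 and -0.07) lies near 0.

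The levels of most members varied together among the mice of a group. After the group means were removed, Eln correlated over the 36 mice with Mfap4 (Pearson r = 0.78, Spearman rho = 0.73), Fbln2 (0.78 and 0.72), Fbln1 (0.77 and 0.69), Mfap2 (0.76 and 0.65), Fbln5 (0.74 and 0.72), Fbn1 (0.73 and 0.70), Ltbp4 (0.71 and 0.65) and Emilin1 (0.70 and 0.61). Permuting the mice within their groups gave p = 1e-05, the smallest that 100000 resamples allow, to 1.1e-04 for r and 1e-05 to 5.5e-04 for rho. Over the 9 relations computed, the adjusted p values were 1.8e-05 to 1.24e-04 for r and 4.5e-05 to 6.19e-04 for rho. Mfap5, near 0 throughout, had r = -0.09 (permutation p = 0.627) and rho = -0.02 (permutation p = 0.901). Without the 2 mice farthest from the median of Eln, HFD Fc(mML1)B3 mouse 5 and HFD Fc mouse 1, r was 0.61 to 0.75 for the 8 genes.

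The relation was also computed within each diet. On the HFD r with Eln was 0.73 to 0.86 for the 8 members, or 0.67 to 0.82 without mouse 5, and on the standard diet it was 0.80 for Mfap4 and 0.74 for Fbln5 but 0.25 for Mfap2 and 0.42 for Fbln1. Within single groups it was 0.59 to 0.91 in Fc and 0.73 to 0.94 in Fc(mML1)B3 mice on the HFD, and 0.32 to 0.84 in Fc mice on the standard diet. Among the 7 Fc(mML1)B3 mice on the standard diet it was -0.06 for Ltbp4, 0.11 for Mfap2, 0.19 for Fbln1 and 0.38 to 0.68 for the other 5. Whether r differed between the diets or groups was not tested. Within the inferred set of HFD Fc(mML1)B3 mice 5 to 10 it was 0.85 to 0.96, and within the standard diet set with both proteins 0.36 (Emilin1) to 0.87 (Mfap4). Among the 36 pairs of the 9 tested members, r ranged from 0.55 (Fbn1 with Ltbp4) to 0.88 (Fbln1 with Mfap2 and with Mfap4). It ranged from 0.56 to 0.97 (median 0.76) among the HFD mice, from 0.44 to 0.96 (median 0.67) among these without mouse 5, and from -0.16 to 0.81 (median 0.50) among the standard diet mice.

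Eln also varied with the summed markers of several cell types, none of which is a member, and ran against those of hepatocytes. Of 9 marker lists over the 36 mice, the portal fibroblast list had the highest r with Eln (0.83, rho 0.79), followed by the cholangiocyte (0.77, rho 0.71), myofibroblast (0.73, rho 0.67), mesothelium (0.72, rho 0.59), stellate cell (0.66, rho 0.61) and vascular smooth muscle lists (0.48, rho 0.44). The hepatocyte list had r = -0.75 (rho -0.71) and the endothelium list -0.45 (rho -0.42), and the adipocyte list -0.09 (rho -0.16). The permutation p, adjusted over the 9 lists, was 0.701 for r of the adipocyte list and at most 0.00952 for the others, and for rho it was 0.377 and at most 0.0111. Without the 2 farthest mice, r was 0.79 for the portal fibroblast and 0.33 for the smooth muscle list. The order differed by diet. On the HFD r was 0.88 for the portal fibroblast and 0.83 for the cholangiocyte list (0.85 and 0.78 without mouse 5), and 0.45 for the smooth muscle list (0.20 without it), while on the standard diet it was 0.89 for the mesothelium list, 0.69 for both the stellate cell and myofibroblast lists, 0.66 for the portal fibroblast list and 0.52 for the cholangiocyte list. The share of each cell type was not measured.

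**Figure D5:**
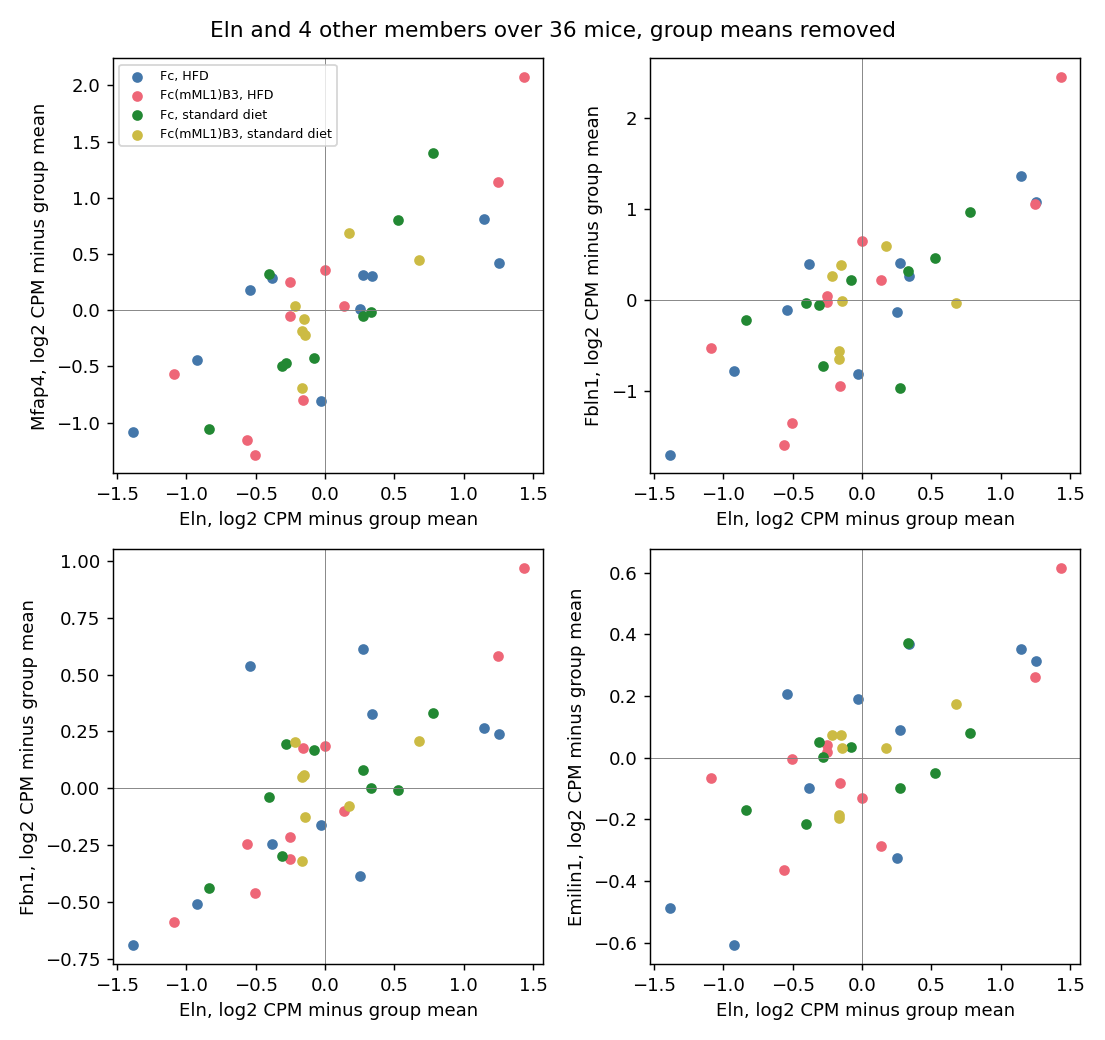
Deviation of Eln from its group mean (log2 CPM, x axis) against that of Mfap4, Fbln1, Fbn1 and Emilin1 (y axes) in 36 mice, coloured by group. Points rise to the right in each panel (r = 0.78, 0.77, 0.73 and 0.70), and HFD Fc(mML1)B3 mouse 5 is the point at the upper right.

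The 5 genes most like Eln among 14104 others, by Pearson r of the same values, were Cav1 (0.90), Pdgfrb (0.90), Emp2 (0.89), Ehd2 (0.87) and Bcam (0.87). These were chosen for their r, which is a description. The 8 other tested members came later in the same order, with Mfap4 first among them, Fbln2 at rank 146 and Emilin1 last at rank 428. On the standard diet, none of the 5 was called between the proteins. Their log2 fold changes were -0.51 for Pdgfrb and -0.22 to -0.12 for the others, against -1.14 for Eln. On the HFD none was called either. The log2 fold changes were -0.70 for Emp2 (adjusted p = 0.00637), -0.53 for Pdgfrb (adjusted p = 0.0808), -0.35 for Cav1, -0.23 for Bcam and -0.10 for Ehd2 (adjusted p = 0.306, 0.576 and 0.764), beside -0.73 for Eln (adjusted p = 0.140).

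The other genes of elastic fibres were counted over a list of 30, of which Emilin3, Adamts17 and Ctsv passed the filter on low counts in no comparison. The list is not independent of these data. The study had already reported Lox and Loxl4 as lower on the standard diet and Loxl1 as lower on the HFD. On the standard diet, 3 of 25 tested were called lower with Fc(mML1)B3, where 1.31% of all genes were, and none higher. These were Lox, a crosslinking enzyme of elastin and collagen (log2 fold change -1.11, SE 0.20, adjusted p = 5.72e-04), Loxl4 of the same family (-0.66, SE 0.20, adjusted p = 0.0265) and Fbn2, the second fibrillin (-1.31, SE 0.38, adjusted p = 0.0223). With the thresholds of the HFD, added after seeing the data, Lox and Fbn2 were called, 2 of 25, and Loxl4 was not, where 0.265% of genes were called lower. Over the 25 tested genes of the list the median was -0.19, beside -0.01 over all genes. On the HFD, Loxl1, an enzyme that crosslinks tropoelastin, was called lower (-1.09, SE 0.29, adjusted p = 0.0145) as 1 of 26 tested, where 0.677% of all genes were, with a median of -0.24 over the list. Without Fc(mML1)B3 mouse 5, Loxl1 (-1.39, adjusted p = 4.87e-04) and Fbn2 (-1.28, adjusted p = 0.0382) were called lower, 2 of 26, where 1.08% of genes were, and the median was -0.41. On neither diet was a gene of latent TGF-β binding, emilin, ADAMTS, small proteoglycan or elastase groups called between the proteins, and no gene of the list was called in the interaction.

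Between the diets more genes of the list were called. Among Fc mice 12 of 27 tested genes were called lower on the standard diet, where 9.06% of all genes were, and none higher, with a median of -0.51 beside -0.05 over all genes. Called were Loxl1 and Loxl3, the fibulins Efemp2 and Fbln7, the TGF-β binding Ltbp2 and Ltbp3, Mmrn1, Adamtsl2, the small proteoglycans Bgn and Dcn, which bind collagen and microfibrils, and the proteases Ctss and Ctsk, which can cut elastin. Bgn had a log2 fold change of -0.90 (SE 0.13, adjusted p = 5.91e-07) and Efemp2, which brings lysyl oxidase to tropoelastin, one of -0.95 (SE 0.14, adjusted p = 1.48e-06). Lox was higher at the adjusted p alone (0.49, SE 0.20, adjusted p = 0.0425). Among Fc(mML1)B3 mice 8 of 27 were called lower, where 6.05% of all genes were, namely Efemp1, Efemp2, Fbln7, Ltbp2, Ltbp3, Adamtsl2, Bgn and Dcn, with a median of -0.46 beside -0.02. Without HFD mouse 5, 4 of 27 were called lower, Efemp2, Fbln7, Ltbp2 and Bgn, where 4.45% of genes were, with a median of -0.30. The 2 diet comparisons share no mice, but both rest on the same change of experiment.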

How the data were processed

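Liver RNA of 36 mice was sequenced as directional libraries, read from both ends. The authors trimmed the reads with fastp, removed ribosomal RNA with Bowtie2 2.4.5, aligned with STAR 2.7.10a to mm10 and counted with featureCounts of Subread 2.0.3. The deposited values are counts per gene without normalization. Each end was counted by itself and without strand, and reads with several alignments were left out. No member shares exonic bases with another gene.

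Groups came from the sample titles. Each diet was fitted by itself, and the interaction and diet contrasts in a model of 4 groups, with edgeR 4.0.16 in R 4.3.3 (TMM, filterByExpr, quasi-likelihood F-test, Benjamini-Hochberg over all genes tested). Calls used an adjusted p below 0.1 and a fold above 2 on the HFD, as in the study, and 0.05 and 1.5 on the standard diet, where the study gives both pairs of thresholds. The contrasts between the diets, which the study did not test, used 0.05 and 1.5, and the interaction 0.05 alone. Per-mouse log2 CPM used a prior count of 2. The fits were tested on simulated data with a fixed dispersion and with changes larger than those of most members. This test does not cover genes with small changes or a wide spread among mice. Named by rule were the members, the listed elastic fibre genes that were called, and the 5 genes most like Eln. The markers named, the untested listed genes and Lox between the diets lie outside this rule and were chosen after their values were seen. Members and lists were chosen with earlier results of these data known, among them the study's report of Eln as lower on the standard diet. Alternatives were DESeq2 1.42.0, limma-voom (limma 3.58.1), other scalings, no filter, single sets of libraries inferred from the numbers in their names, single libraries left out, and a replicate block. Mfap2 and Mfap5 had the fewest reads of the members.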

Additional observations from a re-analysis of the deposited data

Results flagged for a closer look

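Of 36 sets of values tested, 9 members in each of 4 groups, 1 held a mouse far from the others by Dixon's test of the gap over the range. In Fc mice on the standard diet, Emilin1 was at 53.6 CPM in mouse 1 and at 35.7 to 43.8 CPM in the other 8. The gap took 0.496 of the range on the log2 scale. Chance flags about 1 in 20 such sets. Fc(mML1)B3 mouse 5 on the HFD was not flagged for any member, although it was the highest of its group in all 9.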

How the results depend on the processing

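For the members called lower on the HFD, the count of 0 became 1 with Fc(mML1)B3 mice 1 to 4 alone (Eln), 2 at an adjusted p below 0.05 with no fold limit, and 0 to 1 as single libraries were left out. The count of 1 on the standard diet became 3 with no fold limit and was 1 each time a library was left out. It was also 1 with the added thresholds. For Fc mice between the diets, the count of 5 became 2 when Fc standard diet mice 1 to 5 were left out, an alternative chosen after seeing the data. It was 6 with upper-quartile scaling and with library totals alone, as Fbln2 was then called (-0.60 and -0.61), 4 by limma-voom and 4 to 5 as single libraries were left out. Eln on the standard diet was called in all 16 fits without a library (log2 fold change -1.28 to -1.02) and in all 7 other alternatives (-1.35 to -1.04). No count of members called higher moved from 0. The values whose sign turned were called in no fit. Fbln1 between the proteins was 0.08 on the HFD with mice 5 to 10 alone, and on the standard diet 0.00 by DESeq2, 0.01 by limma-voom and 0.13 with the replicate block. Mfap4 on the standard diet was 0.07 by limma-voom and 0.12 with the block. Ltbp4 on the HFD was -0.04 with library totals alone and -0.07 with mice 1 to 4. The Fbln1 interaction was -0.04 without Fc standard diet mice 1 to 5. Between the diets in Fc(mML1)B3 mice, Eln was 0.06 and Fbn1 0.04 by limma-voom. As single libraries were left out, these ranged from -0.03 to 0.10 (Ltbp4, HFD), -0.12 to 0.16 (Fbln1, standard diet), -0.18 to 0.23 (Mfap4, standard diet), -0.21 to 0.14 (Eln, between the diets in Fc(mML1)B3 mice) and -0.07 to 0.12 (Fbn1, the same). Causes of these shifts were not tested.

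Samples that share a replicate number did not vary together (r of -0.62 to 0.26 over 10 HFD pairs, -0.16 to 0 over 7 standard diet pairs), so the numbers pair nothing. With the replicate block the counts of members called stayed at 0 on the HFD, 1 on the standard diet and 0 in the interaction, and Eln on the standard diet was -1.04 (adjusted p = 0.0145). At the adjusted p alone, Fbn1 (0.0799) and Emilin1 (0.128) on the standard diet and Emilin1 on the HFD (0.142) no longer passed with the block. The diet contrasts could not be fitted with the block, since it is nested in the diet. Limma-voom left Mfap2 in Fc mice (adjusted p = 0.0842) and Fbln1 in Fc(mML1)B3 mice (adjusted p = 0.113) uncalled between the diets. The summed RPKM without Eln fell within 1 SD of the full sum in all 4 groups. The fewest reads were those of Mfap5, at most 6 per library, and of Mfap2, with medians of 17 to 36.5.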
